A study of Bos taurus with 8 samples.

Results

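Fibro-adipogenic progenitors (FAPs) that had come to fill bovine satellite cell (SC) cultures by passage 8 were compared with FAPs of cultures sorted as FAPs. Members were the cells of the passage 8 library that carry the authors' label FAPs and belong to donors 5, 6 and 10, whose cells were sorted as SCs, or to donors 4, 7 and 8, whose cells were sorted as FAPs. They numbered 1870 of the 2616 FAPs and 2772 cells at passage 8, and of 36129 cells in the series: 945 in the SC cultures (231, 542 and 172 in donors 5, 6 and 10) and 925 in the FAP cultures (314, 301 and 310 in donors 4, 7 and 8). Another 746 FAPs of the same library came from the unsorted cultures of donors 1, 2 and 9.

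All donors were Belgian Blue cattle, and cells came from the semitendinosus muscle. Each animal gave 1 culture, held for 72 h on fibronectin in serum-free growth medium (SFGM) before fluorescence-activated sorting. At that point (passage 0) every culture was still unsorted. By the paper's general methods the sort used antibodies to ITGA7, ITGA5, JAM-1 and CD45. The paper also used a gate on NCAM1 and CD29 where it says so. The gate of the sequenced cultures is not stated apart from this. By the paper's general culture methods SCs were thereafter grown on laminin-521, FAPs on collagen I and unsorted cells on fibronectin, all in SFGM. The coating of the sequenced SC cultures is not stated apart from this. The paper also compared laminin-521 with a collagen control as a means to limit FAP overgrowth. Donors 5 (female calf), 6 (male adult) and 10 (male calf) formed the SC side, donors 4 and 7 (female calves) and 8 (male adult) the FAP side, and donors 1 and 9 (female adults) and 2 (female calf) the unsorted side. Sort gate, coating (as described), accompanying cells and animal thus changed together and cannot be told apart here.

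FAPs are the interstitial mesenchymal cells of muscle, which deposit collagen and proteoglycans, supply SCs with growth factors and can turn into adipocytes or fibroblasts. SCs are the muscle stem cells, which lie between the fibre and its basement membrane, hold laminin through integrins with the ITGA7 or ITGA6 subunit, and depend on the paired box factors PAX7 and PAX3.

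Values below are CPM, the unique molecular identifiers (UMIs, 1 per captured RNA molecule) of a gene per 1000000 UMIs of all FAPs of a donor, and log2FC is the SC culture side over the FAP culture side with its standard error (SE). Each donor's FAPs were summed before any test, so n = 3 donors against 3, and adjusted p-values are Benjamini-Hochberg values over all genes of the edgeR quasi-likelihood F test. A called gene is one whose adjusted p lay below 0.05 while its absolute log2FC exceeded 1. At passage 8 the sums held 3909920 to 10919900 UMIs in SC cultures (median of 19598.5 to 25116.5 UMIs per cell) and 4542680 to 6132830 in FAP cultures (13797.5 to 19772 per cell; exact 2-sided permutation test of the medians p = 0.3, where 0.1 is the smallest value that 3 against 3 allows).

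Marker genes were looked up in the cells labelled FAPs. The label was itself drawn from gene expression, so low SC markers and present FAP markers are no independent check of it. The 12 SC markers summed to 41.3, 18.4 and 30.9 CPM in SC cultures and to 20.2, 22.3 and 19.4 CPM in FAP cultures, CHRDL2, CALCR and CHODL had no UMI in any of the 6 sums, and PAX7 reached 0.256 CPM in donor 10 and 0 elsewhere. The 12 FAP markers summed to 13291, 16909 and 15084 CPM in SC cultures and to 22873, 54312 and 59460 CPM in FAP cultures, with none at 0. Other cell types gave low sums: 10 endothelial markers reached 2.05 to 7.35 CPM in SC cultures and 5.94 to 7.5 CPM in FAP cultures, and 8 macrophage markers 10.7 to 12.7 CPM and 18.6 to 19.8 CPM. Smooth muscle and mesenchymal markers summed to 604 to 756 CPM and 560 to 1613 CPM, so that the sides overlapped. Of the 2772 passage 8 barcodes, 17 also occur as cells of passage 0, 2 or 5.

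After the sort the SC cultures held few FAPs. At passage 2 they were 19 of 1144 cells of donor 5 (1.66%), 7 of 1092 of donor 6 (0.641%) and 12 of 1101 of donor 10 (1.09%). By passage 5 the cultures had parted, with 57.0%, 2.04% and 6.10% of FAPs, and at passage 8 the shares were 96.7%, 95.6% and 82.7%. The ratio of FAPs to SCs went up 78.4-fold, 3.22-fold and 5.90-fold from passage 2 to 5, and 21.8-fold, 1043-fold and 73.5-fold from passage 5 to 8, so donor 5 made most of its shift early and donors 6 and 10 made theirs late.

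**Figure D1:**
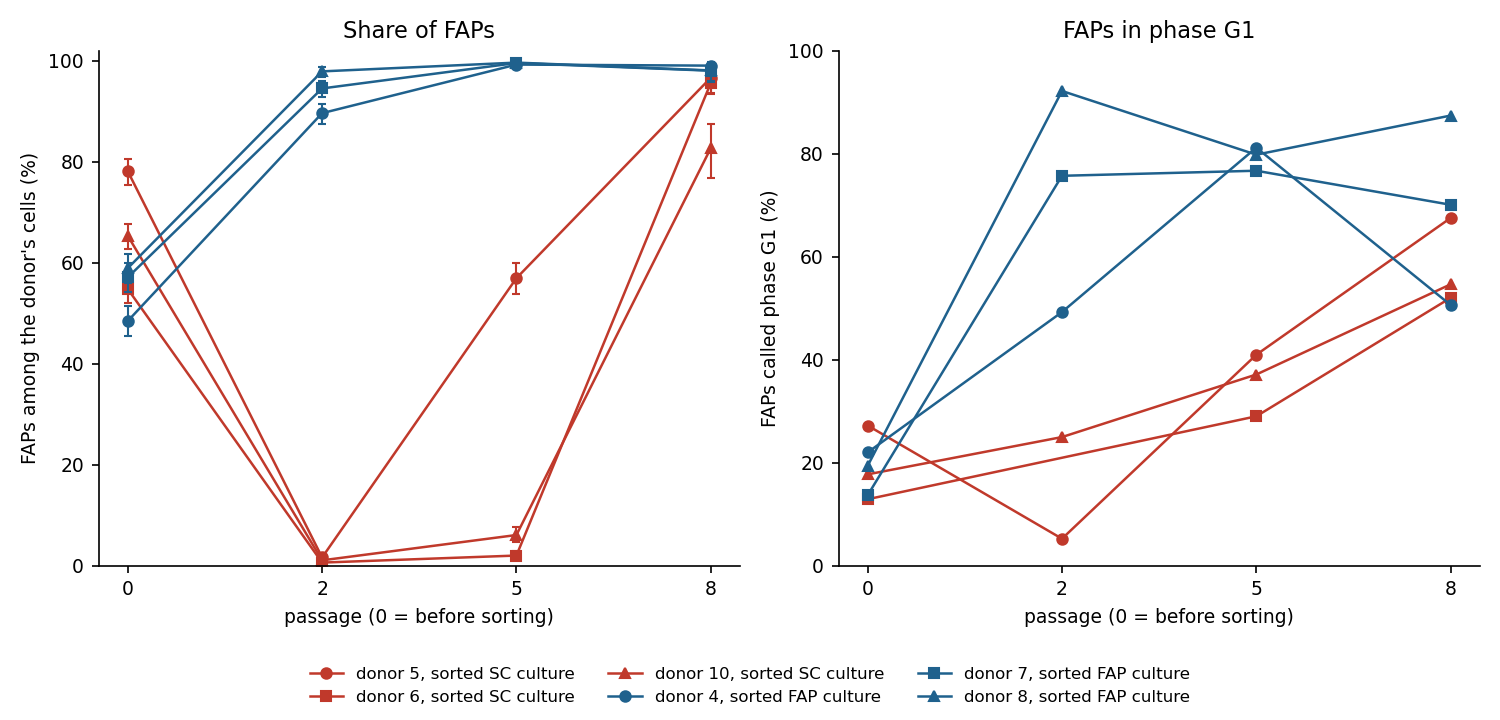
Share of FAPs among a donor's cells (left, percent, with exact 95% binomial intervals for counting error) and share of its FAPs that the deposited annotation puts in phase G1 (right, percent) against passage; red lines are sorted SC cultures and blue lines sorted FAP cultures, 1 line per donor, and donor 6 with 7 FAPs at passage 2 is left out on the right. The FAP share of SC cultures dropped under 2% at passage 2 and was at 82.7% to 96.7% at passage 8, and at passage 5 their G1 shares (29.0% to 41.0%) lay below those of FAP cultures (76.7% to 81.2%).

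At passage 8, 173 of 9911 genes tested were called (1.75%), 69 higher (0.696%) and 104 lower (1.05%) in FAPs of SC cultures. Transcription factor PAX3, integrin subunit ITGA6, carbonic anhydrase CA4 and receptor FGFR1 stood among the higher genes, and collagens, nidogens, leptin and WNT2 among the lower ones. In all 173 the 3 donors of one side lay above the 3 of the other, as they did in 25.4% of all genes tested (14.6% higher and 10.8% lower). The number of calls rested on the donors at hand: it was 523 without donor 4, and 38, 67, 52 and 42 without donors 5, 6, 8 and 10, and 1 gene was called without donor 7. Sex as a covariate gave 100 calls. Of the 37 called genes that belong to the gene lists described below, 36 were also called without donor 4, 5 without donor 5, 10 without donor 6, 0 without donor 7, 9 without donor 8 and 9 without donor 10. With sex as a covariate 14 of them were called, and with DESeq2 all 37.

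PAX6, TLN2 and PAX3 had the largest folds among the higher genes. PAX3, which marks muscle progenitors of the embryo and a part of adult SCs, had 27.9, 35.7 and 20.5 CPM in SC cultures of donors 5, 6 and 10 and 1.79, 1.42 and 1.54 CPM in FAP cultures of donors 4, 7 and 8. Every SC culture lay far above every FAP culture, and the unsorted cultures lay between them at 11.5, 14.3 and 14.9 CPM. The gene was 16.9-fold higher (log2FC 4.08 ± 0.28 SE, edgeR adjusted p = 0.0021). At least 1 PAX3 UMI was found in 36.4%, 43.4% and 31.4% of FAPs of SC cultures. In FAP cultures, part of the same library, the shares were 3.50%, 2.33% and 2.26%. The part of free RNA in these shares was not tested. With each cell thinned to 8000 UMIs (37 to 44 cells per SC culture and 28 to 54 per FAP culture were shallower and left out) the shares were 20.9%, 22.6% and 12.1% against 0.769%, 1.18% and 1.42%. Among cells with no UMI of ITGA7, MYF5, NCAM1, MYOD1 or PAX7 they were 38.9%, 44.6% and 33.8%, against 3.96%, 1.90% and 1.79%.

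PAX6, the master regulator of eye development, had 40.0, 12.9 and 12.3 CPM in SC cultures and 0.815, 0.809 and 1.10 CPM in FAP cultures (log2FC 4.52 ± 0.71, edgeR adjusted p = 0.036). Donor 5 stood above the other SC cultures, and the unsorted cultures, at 4.36, 3.42 and 9.75 CPM, again lay between. A PAX6 UMI was present in 39.0%, 18.8% and 18.0% of the cells of SC cultures, against 1.27%, 1.33% and 1.61%.

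CA4, a carbonic anhydrase held on the outer face of the plasma membrane, was the most abundant of the 10 higher genes with the largest folds. It had 1056, 1357 and 2045 CPM in SC cultures, 154, 214 and 132 CPM in FAP cultures and 272, 185 and 607 CPM in unsorted cultures. The lowest SC culture was thus above the highest of the other 6 cultures, and the difference from FAP cultures was 8.49-fold (log2FC 3.09 ± 0.29, edgeR adjusted p = 0.012).

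ITGA6, the laminin-binding integrin subunit, had 98.8, 134 and 104 CPM in SC cultures against 27.4, 15.4 and 8.59 CPM in FAP cultures, a 6.26-fold difference (log2FC 2.65 ± 0.37, edgeR adjusted p = 0.027). The unsorted cultures, on fibronectin, spread from 11.8 to 59.7 CPM, all under the SC cultures. ITGA6 was also called without donor 4 or 8, and not without donor 5, 6, 7 or 10 or with all 9 donors in 1 fit. TLN2, a talin that couples integrins to actin, had 13.0, 15.7 and 5.37 CPM against 0.489, 0.607 and 0.881 CPM (log2FC 4.08 ± 0.52, edgeR adjusted p = 0.017).

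Of 12 integrin subunits tested, ITGA6 alone was called higher and 2 were lower (0.696% and 1.05% of all genes were), with a median log2FC of 0.11 beside 0.00 over all genes. The collagen-binding subunit ITGA1 had 32.9, 68.8 and 38.1 CPM in SC cultures and 130, 102 and 103 CPM in FAP cultures (log2FC -1.31 ± 0.26, edgeR adjusted p = 0.0499). ITGB3, of the vitronectin receptor, was lower to the same degree (log2FC -1.31 ± 0.19). Neither was called without donor 5, 7 or 8 or with sex as a covariate, ITGA1 also not without donor 4 or 10, with RLE factors or with no filter on low counts, and ITGB3 not without donor 6. ITGB1, the partner of ITGA6 and ITGA1 alike, had 517 to 646 CPM against 446 to 556 CPM (log2FC 0.22 ± 0.12, edgeR adjusted p = 0.37). Among the subunits of the sort as described, ITGA7 had 2.30 to 2.38 CPM against 1.47 to 2.43 CPM. ITGA5 had 141, 190 and 180 CPM against 197, 116 and 88.5 CPM. Neither subunit was called (edgeR adjusted p = 0.82 and 0.58).

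The other higher genes with the largest folds were less abundant. ASGR1, an asialoglycoprotein receptor subunit known from liver, had 36.3, 20.6 and 13.0 CPM against 0.809 to 1.76 CPM. KCNN4, a calcium-activated potassium channel, had 13.4, 7.97 and 21.5 CPM against 0.815 to 1.10 CPM, and PLN, the brake on the calcium pump of the sarcoplasmic reticulum, 27.2, 9.89 and 19.7 CPM against 1.10 to 1.82 CPM. TNF, an inflammatory cytokine, and FRMD4B, a FERM domain scaffold, were higher by log2FC 2.82 and 2.81. For these 5 genes the adjusted p (edgeR) ran from 0.017 to 0.031, and all 3 SC cultures lay above all 3 FAP cultures, as the choice of genes required. Unsorted cultures overlapped SC cultures in the share of FAPs with a UMI of TNF or PLN. For TNF it was 11.6% in unsorted donor 9 and 9.59% in SC donor 6, and for PLN 13.6% and 13.3%. In ASGR1, KCNN4 and FRMD4B the share of every unsorted culture lay below that of every SC culture.

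FGFR1 was the receptor for growth factors that was called higher, 1 of 23 tested, where 0.696% of all genes were called higher. It had 58.6, 36.3 and 33.0 CPM in SC cultures against 4.89, 11.3 and 4.84 CPM in FAP cultures (log2FC 2.55 ± 0.42, edgeR adjusted p = 0.040). It was not called without donor 5, 6, 7, 8 or 10 or with all 9 donors in 1 fit. Unsorted cultures did not keep to one side, with 6.48, 37.3 and 35.0 CPM. NTRK2, the receptor for brain-derived neurotrophic factor, was the one called lower, with 2.38, 1.92 and 3.58 CPM against 16.5, 17.8 and 41.4 CPM (log2FC -3.40 ± 0.48).

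Single members of further lists were higher, where 0.696% of all genes were. NT5E (CD73), the surface enzyme that makes adenosine and a usual mesenchymal stromal marker, had 43.2, 56.8 and 93.9 CPM against 19.2, 13.8 and 21.1 CPM. CD55, which shields cells from complement, had 320, 226 and 243 CPM against 34.2, 62.9 and 80.3 CPM. Neither NT5E nor CD55 was called without donor 5, 6, 7 or 8 or with sex as a covariate, nor CD55 without donor 10. Of 35 redox and metal-handling genes 2 were higher: GCLC, which starts glutathione synthesis (log2FC 1.91 ± 0.26), and the metallothionein MT2A, with 8098, 3959 and 4833 CPM against 1654, 1362 and 1262 CPM. PCOLCE2, an enhancer of procollagen cleavage, was the 1 called of 33 matrix proteases, inhibitors and cross-linkers (log2FC 1.22 ± 0.18), and its call was lost without donor 5, 6, 7 or 8 and with sex as a covariate. The list as a whole had a median log2FC of -0.45, with 8 of 33 above 0, beside 5002 of all 9911 genes. On the lower side 10 were apart and on the higher side 1, beside 10.8% and 14.6% of all genes. DESeq2 called 6 lower and 2 higher of 35, beside 321 lower and 151 higher of all 11734 genes. Without donor 4 edgeR called 6 lower and 1 higher, beside 356 lower and 167 higher of all 10101 genes.

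**Figure D2:**
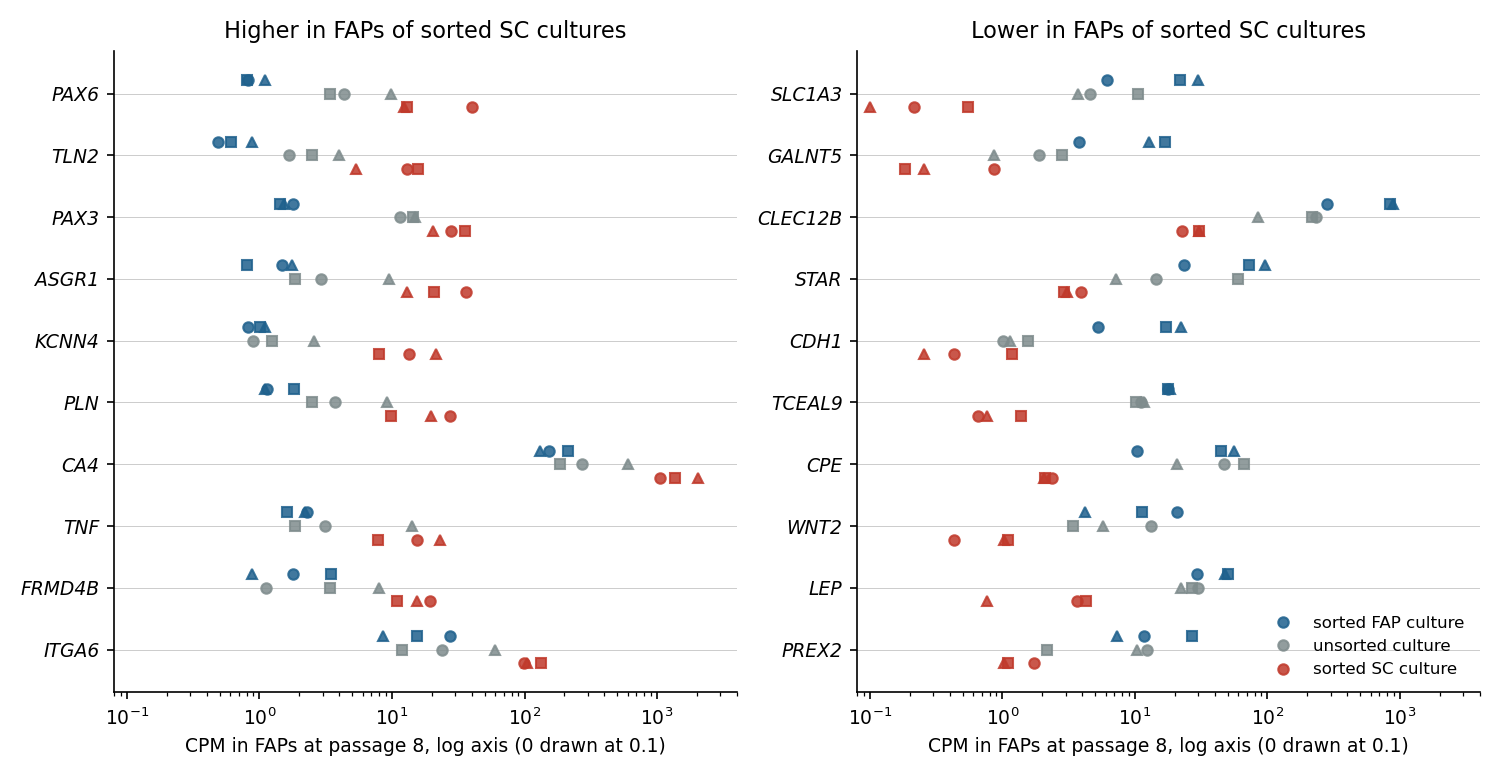
CPM in FAPs at passage 8 (log axis, 0 drawn at 0.1) of the 10 called genes with the largest fold in each direction and at least 10 CPM on average in the higher group; each symbol is 1 donor, red for sorted SC cultures, blue for sorted FAP cultures and grey for unsorted cultures. Red and blue symbols do not overlap in any gene, which was a condition of the choice. In PAX3, PAX6, CLEC12B and TCEAL9 every grey symbol lies between them.

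On the lower side the sharpest separation was that of TCEAL9, a small protein related to a transcription elongation factor. It had 0.648, 1.37 and 0.767 CPM in SC cultures and 17.8, 17.6 and 18.3 CPM in FAP cultures, and the 3 FAP cultures differed from each other by less than 1 CPM. The gene was 17.7-fold lower (log2FC -4.15 ± 0.27, edgeR adjusted p = 0.0021). Unsorted cultures had 11.2, 10.2 and 11.8 CPM. A UMI of TCEAL9 was present in 1.30%, 2.77% and 1.16% of FAPs of SC cultures, against 20.0% to 23.2% in FAP cultures.

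CLEC12B, an inhibitory C-type lectin receptor, had 22.7, 30.4 and 30.4 CPM in SC cultures and 282, 835 and 885 CPM in FAP cultures (log2FC -4.65 ± 0.50, edgeR adjusted p = 0.017). Donor 4 was the lowest of the FAP cultures here, as it was for 6 of the other 9 lower genes with the largest folds. SLC1A3, the glial glutamate transporter, had 0.216, 0.549 and 0 CPM against 6.20, 21.9 and 30.2 CPM (log2FC -5.79 ± 0.90, edgeR adjusted p = 0.037). None of the 172 FAPs of donor 10 had an SLC1A3 UMI, which allows a share of cells with a UMI of up to 1.74% (3 of 172, counting error only) and sets no limit on the share of cells expressing the gene.

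LEP (leptin) had 3.67, 4.30 and 0.767 CPM in SC cultures, 29.2, 50.8 and 48.2 CPM in FAP cultures and 22.1 to 29.7 CPM in unsorted cultures. WNT2 had 0.432, 1.10 and 1.02 CPM against 20.9, 11.3 and 4.18 CPM. Carboxypeptidase E (CPE), which trims prohormones, had 2.38, 2.11 and 2.05 CPM against 10.3, 44.3 and 55.9 CPM. In all 3 genes every SC culture lay below the 6 other cultures (edgeR adjusted p = 0.022, 0.040 and 0.049 against FAP cultures). STAR, which carries cholesterol into mitochondria for steroid synthesis, had 3.89, 2.93 and 3.07 CPM against 23.6, 72.6 and 95.8 CPM (log2FC -4.36 ± 0.61). CDH1 (E-cadherin), the glycosyltransferase GALNT5 and the Rac exchange factor PREX2 completed the 10, with log2FC of -4.29, -4.89 and -3.66. A CDH1 UMI was found in 2.06% to 2.72% of FAPs of unsorted cultures. The shares were 0.581% to 2.03% in SC cultures and 7.96% to 24.2% in FAP cultures. In the same order, they were 2.04% to 4.11%, 0.369% to 0.866% and 5.73% to 19.6% for GALNT5. For PREX2 they were 3.33% to 18.8%, 2.03% to 3.46% and 10% to 27.6%.

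Of 16 interstitial collagens 4 were called lower and 9 lay below every FAP culture in all 3 SC cultures (1.05% and 10.8% of all genes did so), with a median log2FC of -1.31. COL12A1, a collagen on the surface of fibrils, had 8.43, 4.12 and 6.39 CPM against 33.6, 60.1 and 74.8 CPM (log2FC -3.27 ± 0.42), and the fibril-nucleating chains COL11A1, COL5A2 and COL5A1 had log2FC of -2.34, -1.60 and -1.15. The abundant chain COL1A1 had 3420, 3474 and 3539 CPM against 5625, 15657 and 14397 CPM and was not called (edgeR adjusted p = 0.071). The 4 calls were lost in each fit that left out donor 5, 6, 7, 8 or 10. Without donor 4 there were 8, where 356 of all 10101 genes were called lower. Sex as a covariate gave 1 call, and DESeq2 called 8 of 19 lower, beside 321 of all 11734 genes.

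Of 12 basement membrane genes the nidogens NID1 and NID2, which bridge laminin and collagen IV, were lower (log2FC -1.70 ± 0.31 and -2.10 ± 0.32), and the list had a median of -0.23. Over all genes 1.05% were called lower. Of 32 matrix glycoproteins and proteoglycans 4 were lower, at a median of -0.72: LUM (lumican), FMOD (fibromodulin), FBLN5 (fibulin-5) and the microfibril gene MFAP2. None of the 4 was called in the fits without donor 5, 7, 8 or 10 or with sex as a covariate, and without donor 6 there was 1 call. DESeq2 called 13 of 40 lower and 2 higher, beside 321 lower and 151 higher of all 11734 genes. The nidogens were called in none of the fits without donor 5, 6, 7, 8 or 10. LUM had 1332, 1587 and 1423 CPM against 2110, 3245 and 3546 CPM (log2FC -1.10 ± 0.20, edgeR adjusted p = 0.041), and FMOD had 50.1, 62.0 and 35.3 CPM against 129, 343 and 345 CPM. FMOD is also a tenocyte marker. The 6 tenocyte markers, FMOD among them, summed to 71.1 to 94.1 CPM against 167 to 404 CPM. These sums are thus not separate from the FMOD values. SCX was at 0 in all 6 sums and TNMD at or under 0.22 CPM, and the part of such cells in this result was not tested.

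LUM was the 1 FAP marker of 12 called at passage 8, where 1.05% of all genes were called lower, and the median of the 12 was -1.75. PDGFRA, the receptor by which FAPs are usually recognised, had 61.6, 91.0 and 57.5 CPM in SC cultures and 124, 308 and 600 CPM in FAP cultures, and DCN (decorin) 2750, 4824 and 2495 CPM against 5649, 11928 and 15756 CPM. Their sides did not overlap, yet neither was called (edgeR adjusted p = 0.11 and 0.10), with FAP cultures differing among themselves by more than 2-fold. The number called lower was 9 without donor 4, where 356 of all 10101 genes were lower, and 8 with DESeq2 (321 of all 11734 genes). It was 5 after thinning (150 of all 9650 genes), and 0 without donor 5, 6, 7, 8 or 10 and with sex as a covariate.

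The mesenchymal homeobox genes PRRX1 and PRRX2 were the members called lower among 51 positional and mesenchymal transcription factors, of which PAX3 was the higher one. PRRX1 had 320, 286 and 371 CPM against 528, 884 and 1043 CPM (log2FC -1.39 ± 0.27), and PRRX2 had 102, 93.5 and 36.1 CPM against 332, 424 and 486 CPM (log2FC -2.47 ± 0.42). Neither was called without donor 5, 6, 7 or 8 or with sex as a covariate, and PRRX2 alone was called without donor 10. Among 24 adipogenic and lipid handling genes (median log2FC -0.15, 10 above 0), the factors EBF2, KLF5 and KLF15 were lower (log2FC -2.02, -1.84 and -2.29). KLF5 was not called without donor 5, 6, 7, 8 or 10 or with sex as a covariate. EBF2 was not called without donor 6 or 7, and KLF15 not without donor 6, 7 or 10. SREBF1, which switches on fatty acid synthesis, was the 1 called of 33 cholesterol and fatty acid genes (log2FC -1.20 ± 0.16). That list had a median of 0.26, with 22 of 33 above 0. Of all genes 1.05% were called lower. The SREBF1 call was lost without donor 5, 7 or 10. KLF15 had 1.95, 1.19 and 1.53 CPM against 6.85, 7.08 and 7.26 CPM, so that its FAP cultures nearly coincided.

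The lists that follow had 1 to 3 lower members each, where 1.05% of all genes were lower. Of 20 Wnt pathway genes WNT2, the co-activator RSPO1 and the factor TCF7L1 were lower, of which none was called without donor 5, 6, 7 or 10 and WNT2 alone without donor 8. Lower too were, of 31 interferon-stimulated and antigen presentation genes, IFI27 and MX2, at a median of -0.45. IFI27 had 81.3, 178 and 56.8 CPM against 864, 451 and 738 CPM (log2FC -2.75 ± 0.46). Of 18 YAP-TEAD target genes ANKRD1 and F3 (tissue factor) were lower and NT5E higher. ANKRD1, a muscle ankyrin repeat gene, had 31.8, 15.0 and 21.5 CPM against 140, 396 and 193 CPM. IFI27, MX2, ANKRD1 and F3 were not called without donor 5, 7, 8 or 10 or with sex as a covariate, and neither were ANKRD1 and F3 without donor 6. Of 23 contractile genes the non-muscle myosin MYH10 and leiomodin LMOD1 were lower, and of 13 complement genes C1QTNF1 was lower and CD55 higher.

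Cell cycle genes were not called at passage 8, by edgeR or by DESeq2: of 47 S phase genes (median log2FC 0.23) 3 had an unadjusted p below 0.05 in edgeR, and of 54 G2 and M phase genes (0.30) 1 did. Of all 9911 genes tested, 1925 had an unadjusted p below 0.05 in edgeR. A log2FC above 0 was found in 33 of the 47 S phase genes and 50 of the 54 G2 and M phase genes. Of all genes 5002 were above 0. The 2 medians depended on the donors: they were 0.58 and 0.82 without donor 4, and -0.005 and 0.15 without donor 6. Without donor 4 edgeR called 1 S phase gene higher. MKI67, a marker of dividing cells, had 43.2, 92.6 and 88.7 CPM in SC cultures and 99.0, 52.4 and 23.8 CPM in FAP cultures, so the sides overlapped. Of the deposited phase labels, 58.1 ± 8.30% (SD, n = 3) of FAPs of SC cultures and 69.4 ± 18.4% of FAPs of FAP cultures were G1. The difference exceeded the SD of the SC side but not that of the FAP side (exact 2-sided permutation test, p = 0.5, adjusted p = 0.7 over 3 phases). Restricting the sums to cells in G1 gave 206 calls. Nor was any of 76 cytosolic ribosomal protein genes or 32 glycolysis and hypoxia genes called by edgeR or DESeq2, with 3 and 10 at an unadjusted p below 0.05 in edgeR. Of 37 growth factors and their modulators edgeR called 0 (17 at an unadjusted p below 0.05). DESeq2 called 9 lower and 2 higher of 46, beside 321 lower and 151 higher of all 11734 genes.

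**Figure D3:**
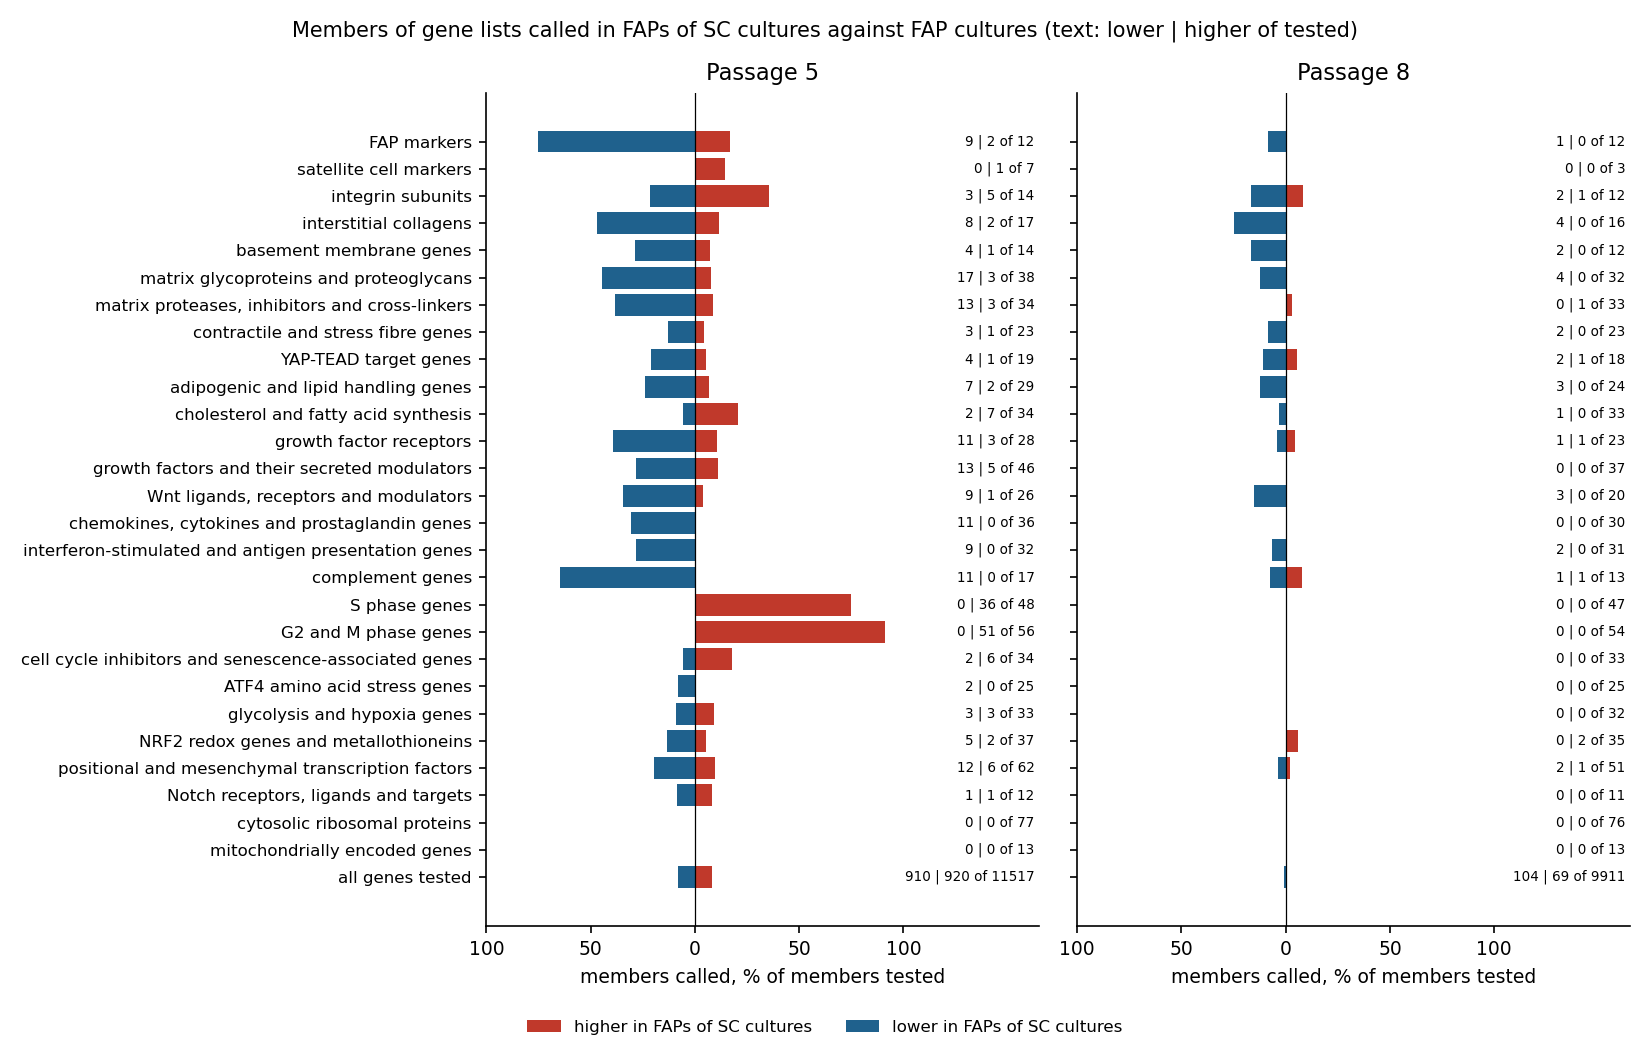
Members of each gene list that were called in FAPs of sorted SC cultures against FAPs of sorted FAP cultures, as percent of the members tested, at passage 5 (left) and passage 8 (right); bars to the right are higher and bars to the left lower in SC cultures, with counts printed as lower, higher and tested. At passage 5, 36 of 48 S phase genes and 51 of 56 G2 and M phase genes were higher, and at passage 8 none was; of interstitial collagens 8 were lower and 2 higher of 17 at passage 5 (median log2FC -0.93), and 4 were lower and none higher of 16 at passage 8 (median -1.31).

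FAPs of the same animals were measured at passage 0, before the sort, when all shared medium and coating. Among 11448 genes tested edgeR called 0 (0%), with 984 at an unadjusted p below 0.05, and DESeq2 called 8. All 12 FAP markers had a log2FC above 0 there, the later SC side being the higher one (median 0.44, against -1.75 at passage 8), and none was called. TCEAL9 had 21.1, 19.8 and 19.2 CPM in donors 5, 6 and 10 and 17.7, 20.2 and 23.4 CPM in donors 4, 7 and 8. ITGA6 had 2.50, 4.32 and 3.82 CPM against 7.75, 8.24 and 5.76 CPM, so that before sorting the later SC side was the lower one, without a call (edgeR adjusted p = 0.56). PAX3 was at or under 0.097 CPM in all 6 donors.

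Taking each animal's own passage 0 FAPs as its reference, 443 of 11467 genes (3.86%) had a change from passage 0 to passage 8 that differed between the sides, 150 with the higher change in SC culture donors (1.31%) and 293 with the lower one (2.56%). TCEAL9 (log2FC of the changes -4.18 ± 0.28, edgeR adjusted p = 0.00067), ITGA6 (3.73 ± 0.30, 0.0016), CA4 (4.00 ± 0.48, 0.015), TLN2, KCNN4, PLN, FGFR1 and LUM were among them, though this comparison and that at passage 8 use the same passage 8 sums. PAX3 did not (6.44 ± 1.61, edgeR adjusted p = 0.058), nor did PAX6, whose passage 0 sums held almost no UMI. The count without one donor ran from 53 (without donor 7) to 833 (without donor 4).

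Between those points the few FAPs caught in SC cultures at passage 2 give values for donors 5 and 10 (19 and 12 cells), with no test. CA4 was already at 1371 and 1272 CPM there, against 131, 173 and 93.6 CPM in FAP cultures, while at passage 0 the same donors had had 39.1 and 65.5 CPM. TCEAL9 was at 9.60 and 8.00 CPM, against 19.0, 19.7 and 23.4 CPM. The sums of donors 5 and 10 held only 625223 and 374857 UMIs there, so their TCEAL9 values rest on a few UMIs. LUM was at 1075 and 792 CPM against 2470.5, 2976 and 3773 CPM.

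**Figure D4:**
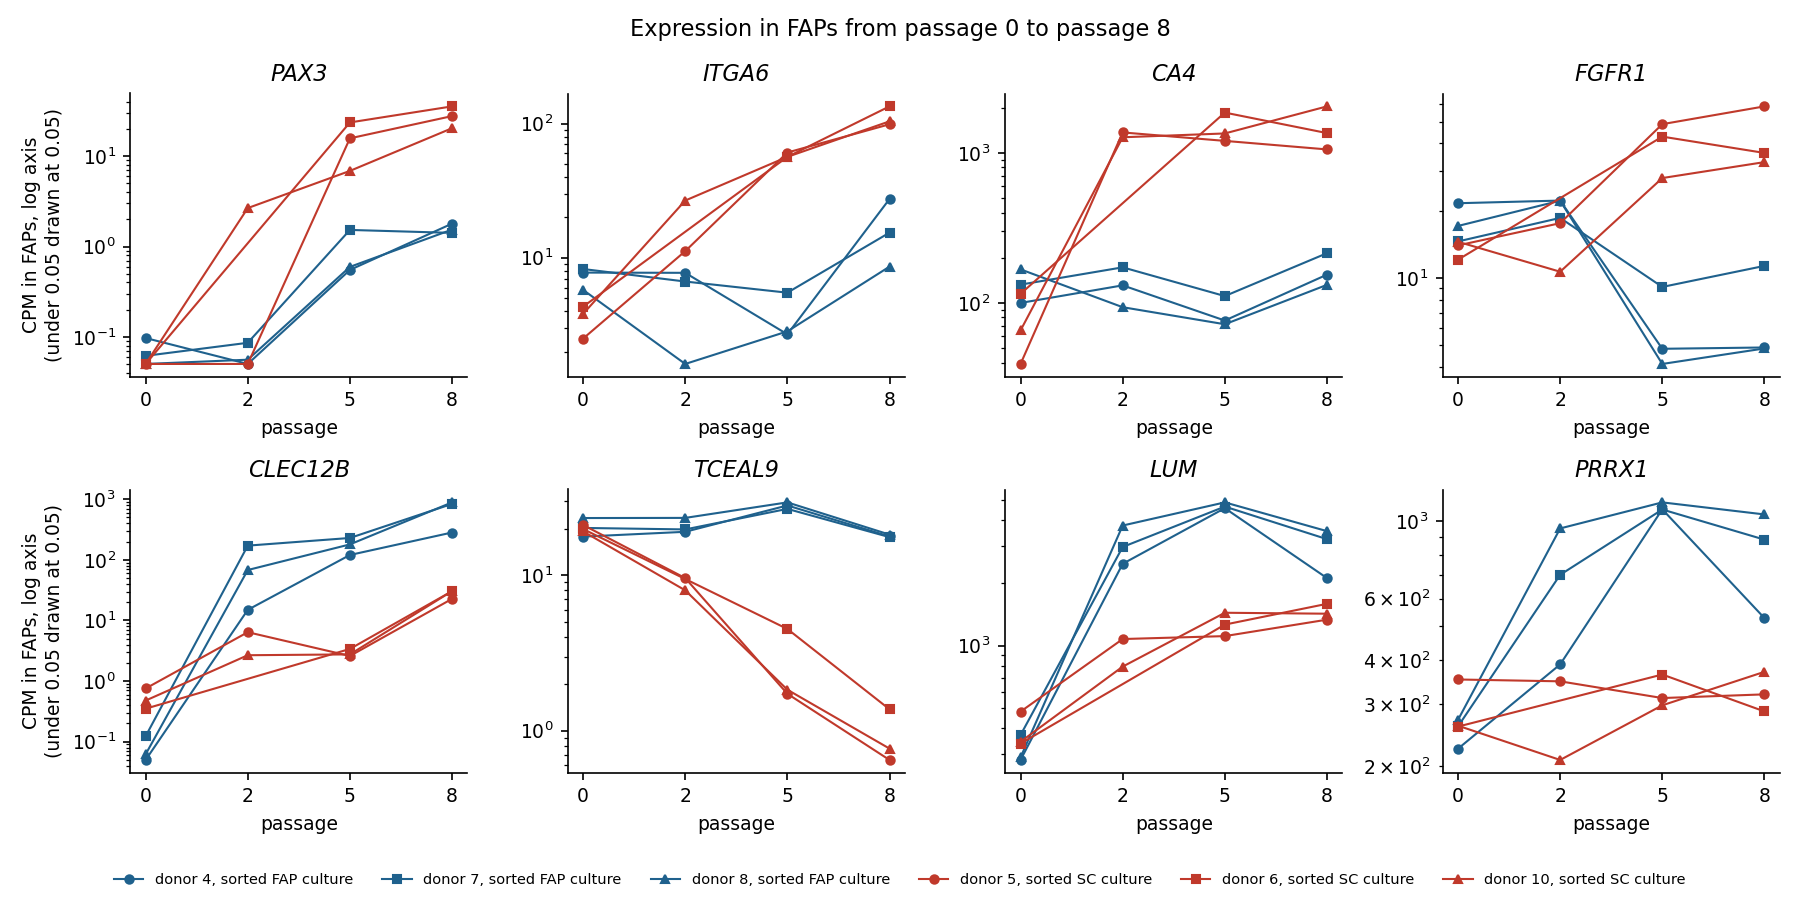
CPM in FAPs (log axis, values under 0.05 drawn at 0.05) of 8 genes against passage, 1 line per donor, red for sorted SC cultures and blue for sorted FAP cultures; donor 6 has no value at passage 2. At passage 0 the donors of both sides overlap in TCEAL9, LUM and PRRX1, and CA4 is apart from passage 2 on in donors 5 and 10. At passage 8 red and blue do not overlap in any of the 8 genes, as in every gene called there.

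At passage 5 more genes were called. Here 1830 of 11517 genes were called (15.9%), 920 higher (7.99%) and 910 lower (7.9%) in FAPs of SC cultures. Of the 173 genes called at passage 8, 153 had been called at passage 5 in the same direction, which is 88.4% of the passage 8 calls and 8.36% of those at passage 5. In 118 of these 153 the absolute log2FC was smaller at passage 8. The sums were less even at passage 5, with 593, 31 and 70 FAPs and 885831 to 16199000 UMIs in SC cultures and 24225300 to 30877700 in FAP cultures, and thinning all to the smallest gave 997 calls among 6803 genes. FAPs of SC cultures also had more UMIs per cell at passage 5 (medians of 27498 to 33052 against 18462 to 22349) and a higher mitochondrial share (3.82% to 4.23% against 3.23% to 3.63%), each with an exact 2-sided permutation p of 0.1, the smallest that 3 against 3 allows. The part of these differences in the passage 5 results was not tested.

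SC markers must be read beside the passage 5 values. The 12 SC markers summed to 22.2, 123 and 44.5 CPM in FAPs of the SC cultures of donors 5, 6 and 10 and to 22.4 to 25.1 CPM in FAP cultures. ITGA7 was at 5.43, 46.3 and 16.5 CPM in those FAPs, against 207 to 321 CPM in SCs of the same cultures. PAX7, CALCR and CHRDL2 were at 0 in the FAPs of all 3 SC cultures, and without donor 6 there were 1841 calls. The part of SC RNA in the passage 5 results was not tested.

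Cell cycle genes were higher at passage 5, where 7.99% of all genes were called higher and 7.9% lower. Of 48 S phase genes 36 were called higher and none lower (median log2FC 1.81), and of 56 G2 and M phase genes 51 and none (2.21), with 33 to 37 and 48 to 50 called when 1 donor was left out. MKI67 had 111, 222 and 134 CPM in SC cultures against 23.0, 16.7 and 8.18 CPM in FAP cultures (log2FC 3.01 ± 0.45, edgeR adjusted p = 0.0041). TOP2A, the mitotic topoisomerase, had 118, 186 and 151 CPM against 24.2, 12.9 and 7.33 CPM, and PCNA, the sliding clamp of replication, 108, 152 and 128 CPM against 30.3, 29.1 and 26.0 CPM. The G1 share was 41.0%, 29.0% and 37.1% in SC cultures and 81.2%, 76.7% and 79.8% in FAP cultures.

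Where 7.9% of all genes were called lower at passage 5 and 7.99% higher, 9 of 12 FAP markers were called lower and 2 higher, of 17 interstitial collagens 8 and 2, and of 38 matrix glycoproteins and proteoglycans 17 and 3. Of 17 complement genes 11 were lower, as were 11 of 36 chemokines, cytokines and prostaglandin genes, and none of either list was higher. COL1A1 had 3485, 4023 and 4758 CPM against 15693, 22719 and 21149 CPM. Complement protease C1R had 38.6, 85.8 and 29.8 CPM against 331, 448 and 589 CPM (log2FC -3.49 ± 0.43, edgeR adjusted p = 0.0017). ITGA5, the integrin subunit of the FAP sort as described, was higher instead (log2FC 1.61 ± 0.19). It had 260, 294 and 436 CPM against 101.3, 96.6 and 82.5 CPM. The FAP marker MFAP5 was higher too (log2FC 1.16 ± 0.28).

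PAX3 and ITGA6 were called higher at passage 5 too. PAX3 had 15.8, 23.7 and 6.88 CPM in FAPs of SC cultures and 0.551, 1.53 and 0.595 CPM in FAP cultures, and SCs of the same 3 cultures had 43.1, 46.6 and 38.5 CPM. ITGA6 had 60.8, 56.4 and 56.5 CPM against 2.69, 5.49 and 2.83 CPM, and SCs had 73.4, 12.5 and 25.7 CPM. CA4 went the other way between the cell types, with 1204, 1859 and 1349 CPM in FAPs of SC cultures and 21.3, 63.4 and 31.9 CPM in SCs. TCEAL9 had 1.73, 4.52 and 1.84 CPM in the FAPs, 1.04, 0.822 and 0.710 CPM in SCs, and 26.7 to 29.5 CPM in FAP cultures.

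From passage 5 to passage 8 the sides came together in the cell cycle genes, a comparison added after the counts at both passages were known. With the animal as a block, 378 of 10559 genes (3.58%) had a change that differed between the sides, 85 higher (0.805%) and 293 lower (2.77%) in SC culture donors. Of 47 S phase genes 36 were lower and of 56 G2 and M phase genes 42, and none was higher. MKI67 changed by a log2FC of -2.69 ± 0.21 in SC cultures relative to FAP cultures (edgeR adjusted p = 0.00014): it went from 111, 222 and 134 to 43.2, 92.6 and 88.7 CPM on one side and from 23.0, 16.7 and 8.18 to 99.0, 52.4 and 23.8 CPM on the other. LUM, COL5A2 and CD55 were among the genes with the higher change (log2FC 1.07, 1.03 and 1.10). Without the block no gene was called (1555 had an unadjusted p below 0.05), so these calls rest on the pairing of passages within an animal.

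**Figure D5:**
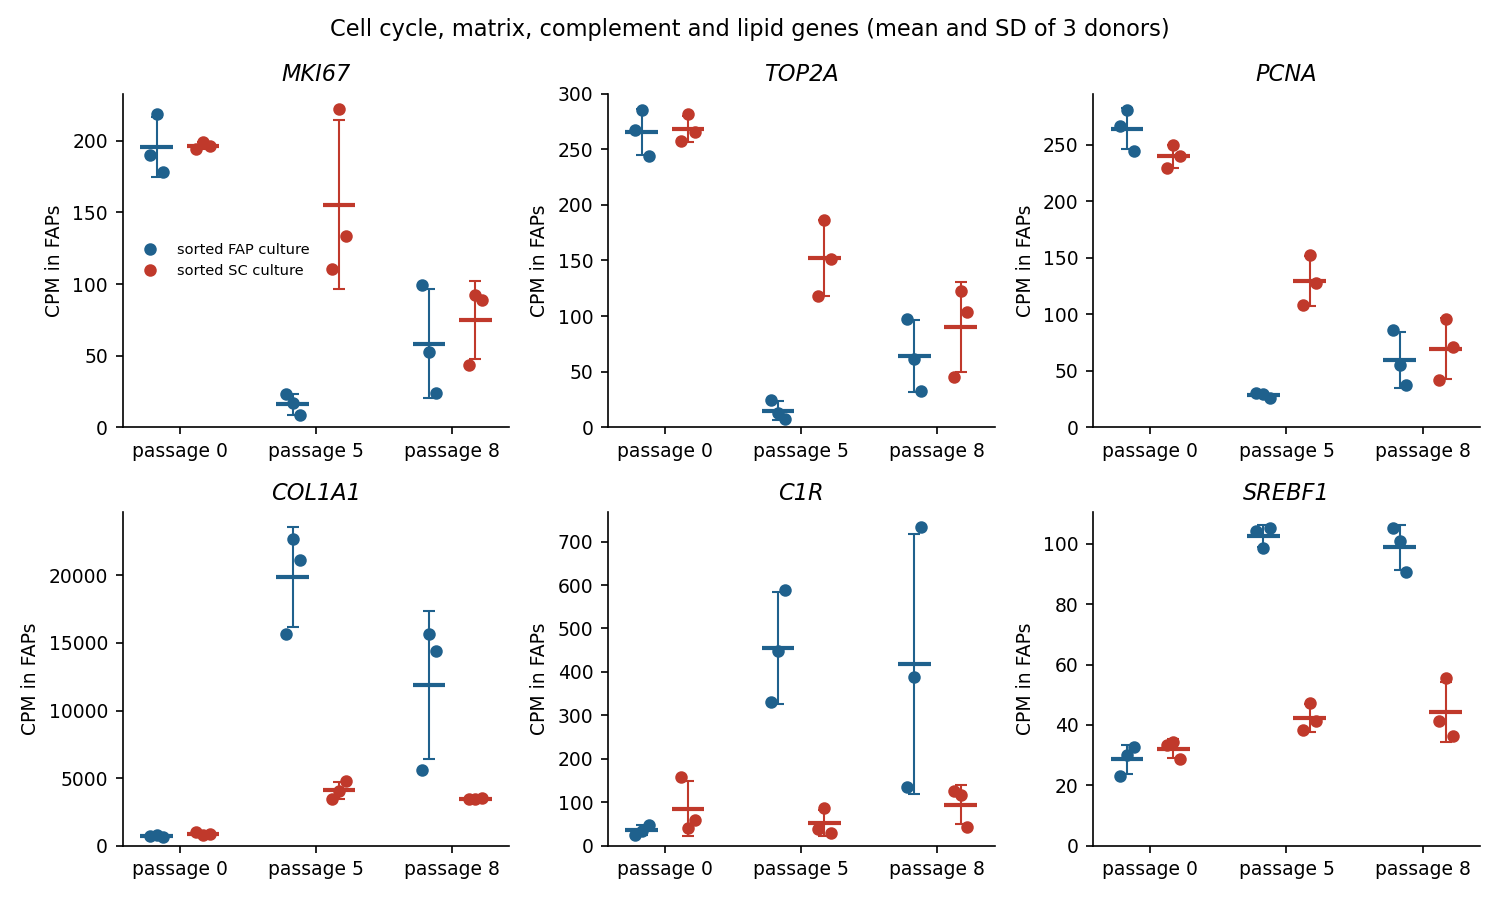
CPM in FAPs at passages 0, 5 and 8 of 3 cell cycle genes (MKI67, TOP2A, PCNA), COL1A1, C1R and SREBF1; points are donors, bars the mean and SD of 3 donors, red for sorted SC cultures and blue for sorted FAP cultures. The cell cycle genes are apart at passage 5 (MKI67 111 to 222 against 8.18 to 23.0 CPM) and overlap at passage 8 (43.2 to 92.6 against 23.8 to 99.0 CPM), and SREBF1 is apart at both (36.3 to 55.5 against 90.5 to 105 CPM at passage 8).

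Against the unsorted cultures of donors 1, 2 and 9, which were never sorted and grew on fibronectin, 7 of 9731 genes were called at passage 8 (0.0719%), all lower in SC cultures, and DESeq2 called 136, of which 35 were higher. The 7 were TCEAL9, CPE, the nidogen NID2, the protease inhibitor CSTB, the phosphatases PPM1H and PPM1K, and the TNF family ligand TNFSF18. All 7 were also called lower against FAP cultures, but both comparisons use the same 3 SC cultures. CSTB (cystatin B) had 22.5, 15.8 and 17.4 CPM in SC cultures, 96.9, 104 and 98.9 CPM in unsorted and 58.4, 55.6 and 76.4 CPM in FAP cultures (log2FC -2.53 ± 0.19, edgeR adjusted p = 0.011, against unsorted cultures). NID2 had 44.5, 26.6 and 37.3 CPM in SC cultures against 161, 131 and 135 CPM in unsorted ones (log2FC -2.07 ± 0.22). In this comparison edgeR called 0 genes without donor 1, 6 or 10 (837, 729 and 715 at an unadjusted p below 0.05), 1 without donor 5, and 14 and 13 without donors 2 and 9.

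In edgeR no gene was called higher than in unsorted cultures, and 1 was without the filter on low counts, without donor 2 and without donor 9. PAX3 was above them by a log2FC of 0.98 ± 0.24 (edgeR adjusted p = 0.26), CA4 by 1.98 ± 0.45 (0.25), ITGA6 by 1.75 ± 0.50 (0.33) and FGFR1 by 0.66 ± 0.63 (0.81). NT5E had 49.7, 51.5 and 60.2 CPM in unsorted cultures, within the range of SC cultures (43.2 to 93.9 CPM) and above that of FAP cultures (13.8 to 21.1 CPM).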

How the data were processed

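Cells were pooled over donors, and each passage was 1 Chromium 3′ library. The authors ran Cell Ranger 6.0.1 on build ARS-UCD1.2 and told donors apart by genotype with demuxlet. UMI counts are used as deposited, without normalization. Cell type, donor and phase came from the deposited cell tables, of which 19 columns were not used. At passage 8, 8579 barcodes held 2933 singlets and 3934 doublets (45.9%); demuxlet finds doublets of different donors alone, and no other caller was run. Cells were those that passed the authors' quality control, including a limit on the deposited percent of mitochondrial UMIs.

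UMIs of FAPs were summed per donor (at least 10 cells) and tested in edgeR 4.0.16 (R 4.3.3; robust quasi-likelihood F test, TMM, filterByExpr), 2-sided. SE equals |log2FC| over the root of the F statistic. Levels are CPM computed from the deposited counts without TMM factors. Both passage comparisons over time had the animal as a block, since each donor was measured at both passages. The study compared single cells; donors were the replicates here. Each donor is 1 culture, so p-values within a passage measure the spread between animals and their cultures, which cannot be told apart. In both comparisons over time they measure the spread of the changes within animals.

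Alternatives were DESeq2 1.42.0, RLE factors, no filter on low counts, pseudobulks thinned to the smallest, each donor left out, sex, age class, all 9 donors in 1 fit, cells of phase G1, a marker rule for FAPs (more UMIs of PDGFRA, DCN, LUM and ITGA5 than of ITGA7, MYF5, NCAM1 and DES; it removed no cell and is left out of the tally of named genes) and detection in 50% of cells. The comparison from passage 5 to 8 was added after seeing the data. Named genes are the 10 called genes per direction with the largest absolute log2FC, at least 10 CPM in the higher group and sides apart (5 per direction for the change from passage 0), called members of the lists, markers and integrin subunits. The members and lists were chosen with earlier results of these data known. Fits were tested on simulated data. Genes carry the symbols of the deposited tables.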

Additional observations from a re-analysis of the deposited data

Results flagged for a closer look

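The change from passage 0 to passage 8 differed between SC culture donors and FAP culture donors in 443 genes, and that from passage 5 to passage 8 in 378 genes, by the interaction term of the edgeR fits with the animal as a block.

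Among those from passage 0 to 8 with at least 10 CPM on average in the higher group and donor changes that did not overlap, the changes farthest up in SC culture donors were GREM1 (log2FC of the changes 4.57), PLN (4.41), TSPAN18 (4.19), TLN2 (4.12) and KCNN4 (4.10), with edgeR adjusted p-values from 0.0054 to 0.042. GREM1, a secreted antagonist of bone morphogenetic proteins, had 0.464, 0.642 and 0.607 CPM at passage 0 and 88.8, 28.8 and 25.3 CPM at passage 8 in donors 5, 6 and 10, against 2.71, 0.984 and 1.24 CPM and then 2.94, 3.24 and 7.48 CPM in donors 4, 7 and 8. TSPAN18, a tetraspanin, had 5.19, 3.57 and 34.3 CPM at passage 8 in SC cultures, so that donor 10 stood far above the others.

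Under the same limits, the changes farthest down were those of COL6A5 (-8.83), CLEC12B (-7.52), GALNT5 (-5.95), SLC1A3 (-5.70) and IFI27 (-5.30), with edgeR adjusted p-values from 0.00067 to 0.038. COL6A5, a collagen VI chain, had no UMI at passage 0 in donors 4, 7 and 8, and its value depends on the prior count. IFI27 had 34.4, 9.04 and 9.80 CPM at passage 0 and 81.3, 178 and 56.8 CPM at passage 8 in SC culture donors, against 5.62, 2.09 and 1.73 CPM and then 864, 451 and 738 CPM in FAP culture donors. Of these 10 genes, 8 were called without donor 4, 5 without donor 5, 10 without donor 6, 3 without donor 7, 5 without donor 8 and 4 without donor 10. All 10 kept their sign in these fits, but they had been chosen with donor changes apart, so their sign could hardly turn.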

How the results depend on the processing

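Calls at passage 8 numbered 173, and 472 with DESeq2, 100 with sex as a covariate and 54 of 3358 genes detected in 50% of cells of one side; without donor 4, 5, 6, 7, 8 or 10 they were 523, 38, 67, 1, 52 and 42, and the other alternatives gave 143 to 235. At passage 0, DESeq2 called 8 genes, and leaving out donors gave 0 to 1. At passage 5, thinning gave 997 calls among 6803 genes, and leaving out donors gave 1645 to 1929. Against unsorted cultures DESeq2 called 136 and thinning gave 3 calls, with 0 without donor 1, 6 or 10 (715 to 837 genes at an unadjusted p below 0.05 in edgeR), and 1, 14 and 13 without donors 5, 2 and 9. The change from passage 0 to 8 gave 833, 137, 699, 53, 150 and 145 calls without donor 4, 5, 6, 7, 8 and 10, and 341 without the replicate block of the animal. The change from passage 5 to 8 gave 212 calls when thinned, 202 to 500 without 1 donor, and 0 without the block of the animal. The cause of these moves was not tested.

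The 20 named genes of passage 8 kept their sign in every alternative in which they were tested. They had been chosen as called genes with the sides apart and the largest folds, so their sign could hardly turn. Of 283 values 200 stayed on the called side, 83 fell short of the threshold and 0 reversed. All 20 were called by DESeq2, after thinning and without donor 4, 16 with sex as a covariate, 19 in G1 cells, 6, 10, 6 and 7 without donors 5, 6, 8 and 10, and 1 without donor 7. The difference in G1 share at passage 8, -11.3 points, lay between -20.7 and -2.30 points without 1 donor. The 3 donors a side limit these tests, and at passage 5 the 31 FAPs of donor 6 do so too.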

Other observations

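Among all genes tested at passage 5, 7.9% were called lower and 7.99% higher in FAPs of SC cultures. Of 28 growth factor receptors 11 were lower and 3 higher, of 46 growth factors and secreted modulators 13 and 5, of 26 Wnt pathway genes 9 and 1, and of 32 interferon-stimulated and antigen presentation genes 9 and 0. ASPN (asporin), a small proteoglycan, had 8.83, 19.2 and 4.13 CPM in SC cultures against 153, 188 and 137 CPM in FAP cultures (log2FC -4.34 ± 0.34, edgeR adjusted p = 0.00017), and was not called at passage 8 (edgeR adjusted p = 0.12). SFRP1, a secreted Wnt antagonist, had 9.38, 16.9 and 19.3 CPM against 66.5, 71.1 and 105 CPM at passage 5 (log2FC -2.84 ± 0.31).

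Of 34 cholesterol and fatty acid synthesis genes 7 were higher and 2 lower at passage 5, with a median log2FC of 0.59, and 27 had a log2FC above 0. SREBF1 was not among the higher ones: it had 38.4, 47.4 and 41.3 CPM in SC cultures against 104, 98.5 and 105 CPM (log2FC -1.51 ± 0.09, edgeR adjusted p = 1.9e-05).

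Donor 4, the FAP culture with the lowest G1 share at passage 8 (50.6%), also had the lowest levels of COL1A1 (5625 CPM), PDGFRA (124 CPM) and CLEC12B (282 CPM) on its side. WNT2 was instead highest in donor 4. At passage 5 donor 4 had the highest G1 share of the FAP cultures (81.2%) and again the lowest COL1A1 level. A link of the G1 share with these levels was not tested.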
